A study of Sus scrofa with 8 samples.

Results

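The loci of 10 genes of the semaphorin and Slit guidance systems were followed in ATAC-seq peak lists from porcine muscle satellite cells. The genes were the Slit ligands SLIT1, SLIT2 and SLIT3, their receptors ROBO1 and ROBO2, the class 3 semaphorins SEMA3A and SEMA3C, the semaphorin co-receptors NRP1 and NRP2, and the plexin PLXNA2. Peaks of 8 libraries were merged into 178498 regions wherever they overlapped by at least 1 bp, and a region belonged to a gene if the nearest end of any protein-coding gene, within 50 kb, was an end of that gene. This gave 158 regions, of 114950 regions linked to 17474 genes in all. The set was put together because NRP2 and SLIT1 gained regions in CBP at 60 h, that is, its members were chosen by peak calls of these same libraries, and values of CBP against WT at 60 h are therefore given as a description.

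ATAC-seq marks open DNA by the insertion of adapters with a transposase. The 8 libraries form 4 groups of 2, labelled WT and CBP at 0 h (cell proliferation) and WT and CBP at 60 h (cell differentiation). All groups carry the same labels for tissue (muscle), cell type (muscle satellite cell, the resident stem cell of skeletal muscle) and cell line (C3H), with pig given as the organism. The treatment protocol, also the same for all, names SGC-CBP30, an inhibitor of the bromodomains by which the acetyltransferases CBP and EP300 dock on acetylated chromatin, for 48 h in proliferation and for 60 h in differentiation. Which groups received it is not stated, so groups are called here by their labels. Nor is it stated whether the replicates of a group are different animals, different cultures or repeat preparations. A p-value here covers only spread between libraries, possibly technical, with the WT and CBP libraries of a time pooled.

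Secreted Slit proteins bind Robo receptors and steer growing axons and migrating cells, mostly by repulsion. Secreted class 3 semaphorins bind neuropilins, which have short cytoplasmic tails, and the signal passes into the cell through plexins of the A family. In skeletal muscle, SEMA3A from satellite cells is known for its part in the re-attachment of motor nerves after injury, and NRP1 and NRP2 also act as co-receptors for vascular endothelial growth factors.

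The 0 h lists held 121757 to 135528 peaks and the 60 h lists 82696 to 88871. Depth relative to the shallowest library, worked out from each peak's fold and p as the authors gave them, was 1.43 to 2.08 at 0 h, 1.11 and 1 in WT 60 h, and 1.21 and 1.08 in CBP 60 h. The 0 h libraries were thus deeper and held more peaks, so the comparisons of times below are also given with equal peak numbers, that is, with the 82696 strongest peaks of each library. All 9 satellite cell and myoblast markers examined had a linked region called in all 8 libraries, but so did 6 of 6 fibroblast, 6 of 6 endothelial and 4 of 4 immune markers with a linked region, and 2 of 5 neural and Schwann markers. Of all 114950 linked regions, 36600 were called in all 8 libraries, and a gene with many linked regions meets this count more easily. A called region near a marker therefore did not separate the labelled cell type from others here. In such bulk lists an open site in fewer cells and a weaker opening in each cell cannot be told apart, and a region that was not called may still hold reads under the peak caller's threshold.

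At 60 h, more guidance regions were called in CBP than in WT. Of the 158 regions, 70 and 70 (44.3% each) were called in the WT 60 h libraries. In the CBP 60 h libraries 86 and 84 (54.4% and 53.2%) were called, and the groups did not overlap. Of all linked regions, 48.4% and 46.2% were called in WT 60 h and 48.4% and 47.8% in CBP 60 h. A region is termed opened where both libraries of the first-named group and neither of the other group called it, and closed in the reverse case. By this rule 13 regions (8.23%) were opened and 2 (1.27%) were closed in CBP, where 3.14% of all linked regions were opened and 3.17% closed. The 13 were 5 of NRP2, 4 of SLIT1, 3 of SLIT3 and 1 of PLXNA2, and the closed regions belonged to SLIT2 and SEMA3C. With equal peak numbers 11 were opened and 2 closed, against 2.77% and 3.45% of all linked regions. The libraries then called 79 and 83 guidance regions in CBP 60 h and 69 and 70 in WT 60 h. Of all linked regions, 45.6% and 45.3% were then called in CBP 60 h and 46.6% and 46.2% in WT 60 h. The shares of the guidance regions describe a set that was chosen for its gains in this contrast. At a −log10 q of at least 5 the counts were 5 and 1, and without CBP 60 h replicate 2 they were 23 and 4; without WT 60 h replicate 1 or 2, 6 or 8 regions were closed. Of the 28 linked regions of neural and Schwann markers, 0 were opened and 0 closed in CBP at 60 h. Fibroblast markers had 3 opened and 5 closed of 81, endothelial markers 2 and 5 of 68, immune markers 0 and 2 of 28, and satellite cell and myoblast markers 2 and 3 of 133.

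**Figure D1:**
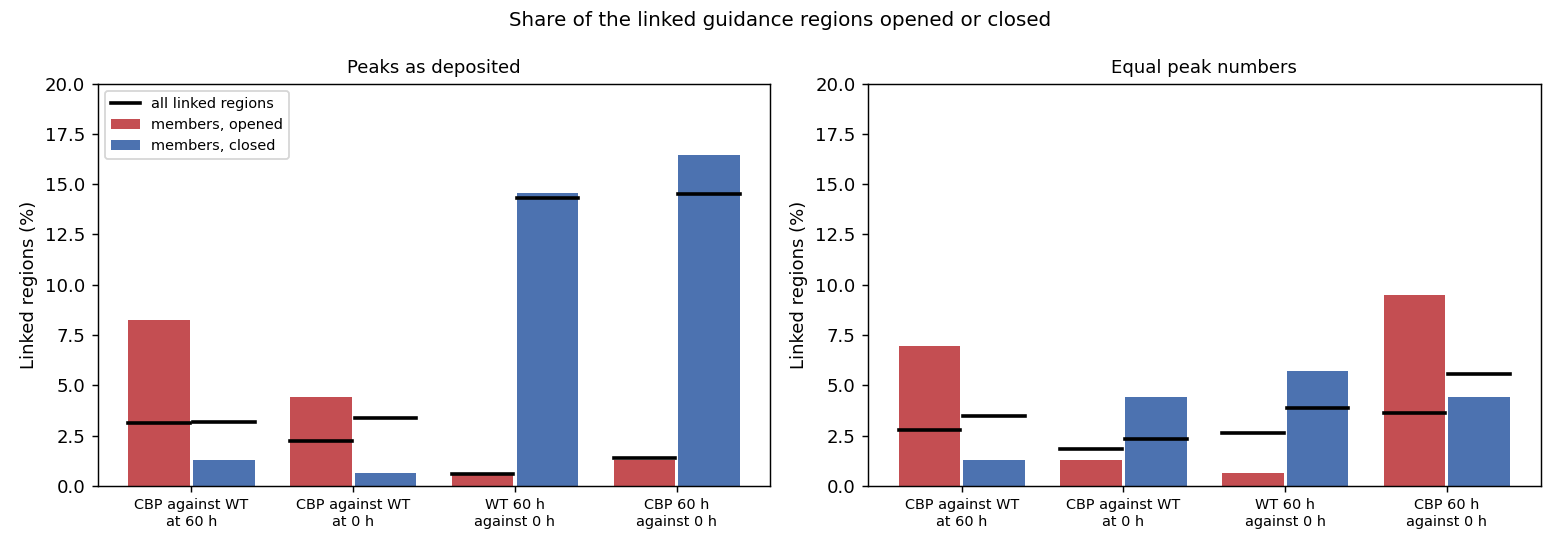
Share of the 158 guidance regions (bars, in percent) that were opened or closed in 4 comparisons of 2 libraries with 2, as deposited (left) and with equal peak numbers (right); black lines give the same share over all 114950 linked regions. The opened bar of CBP against WT at 60 h (8.23%) stands above its line (3.14%), while the closed bars of the comparisons of times lie near theirs as deposited.

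NRP2, a neuropilin that binds class 3 semaphorins, lies on chromosome 15 from 108974246 to 109092316 (Sscrofa11.1). It had 28 linked regions. Of these, 16 and 18 were called in WT 0 h, 19 and 18 in CBP 0 h, 12 and 10 in WT 60 h, and 15 and 17 in CBP 60 h. The WT 60 h libraries were the lowest, and the CBP 60 h libraries overlapped with the 0 h libraries. With equal peak numbers every 0 h library called 12 of them, WT 60 h called 11 and 10, and CBP 60 h called 14 and 16.

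Of the 5 NRP2 regions opened in CBP at 60 h, 3 lay next to each other outside the lower-coordinate end of the gene, within 10.5 kb. They were 3 of the 4 linked regions on that side, where the next gene, PARD3B, lies 60.8 kb away. Beyond the higher-coordinate end the next gene, LOC110256920, lies 2.67 kb away, which limits the regions linked to NRP2 there. The gene table gives no strand, so it is not stated here whether this end is the start of transcription. The region farthest out (108957592 to 108958007, 16.2 kb from the gene) was called in neither WT library and in none at 0 h, with an authors' −log10 q of 6.33 and 7.43 in the CBP 60 h libraries and a summit pileup of 22 fragments in each. The next (108962668 to 108963390, 10.9 kb from the gene) had a −log10 q of 7.18 and 11.96 in CBP 60 h, and was called at 0 h in WT replicate 2 (2.97) and CBP replicate 2 (3.48). The third (108967393 to 108968123, 6.12 kb from the gene) was called in all 4 libraries at 0 h, with 7.23 and 7.91 in WT and 21.2 and 9.56 in CBP, in no WT 60 h library, and with 10.4 and 3.76 in CBP 60 h. These neighbours therefore had different histories: the first was called in CBP 60 h libraries alone, and the third was present in proliferation and missing from the WT 60 h lists.

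The other opened NRP2 regions lay inside the gene. One at 108981360 to 108981727 had a −log10 q of 4.28 and 5.99 in CBP 60 h and 3.91 in CBP 0 h replicate 1. The other, at 109043292 to 109043832, was near the limit of detection (3.65 and 2.22) and was called in no other library. Within its own list, the strongest opened NRP2 peak stood at the 61.0th percentile by −log10 p in CBP 60 h replicate 1 and at the 64.0th in replicate 2, and the weakest at the 15.5th and 1.02nd.

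Other NRP2 regions were present at 0 h and missing later. A region inside the gene at 108993061 to 108994176 had a −log10 q of 29.1 and 29.5 in WT 0 h and 27.4 and 19.3 in CBP 0 h. It was called in WT 60 h replicate 1 (7.57) and in no other 60 h library. Another at 109051522 to 109051998 had 14.7 and 10.9 in WT 0 h and 8.97 and 6.09 in CBP 0 h and was called in no 60 h library. The region that covers the lower-coordinate gene end (108974189 to 108975252) was called in all 8 libraries. Over the whole NRP2 span, 13 and 11 of 27 regions were called in WT 60 h and 11 and 13 in CBP 60 h, with 2 opened and 2 closed, so over the gene body the 60 h groups covered the same range. Of the 27, 24 were linked to NRP2, and the 2 closed regions were not among these. The 5 opened and 0 closed linked regions of NRP2 therefore depend on the linking rule.

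**Figure D2:**
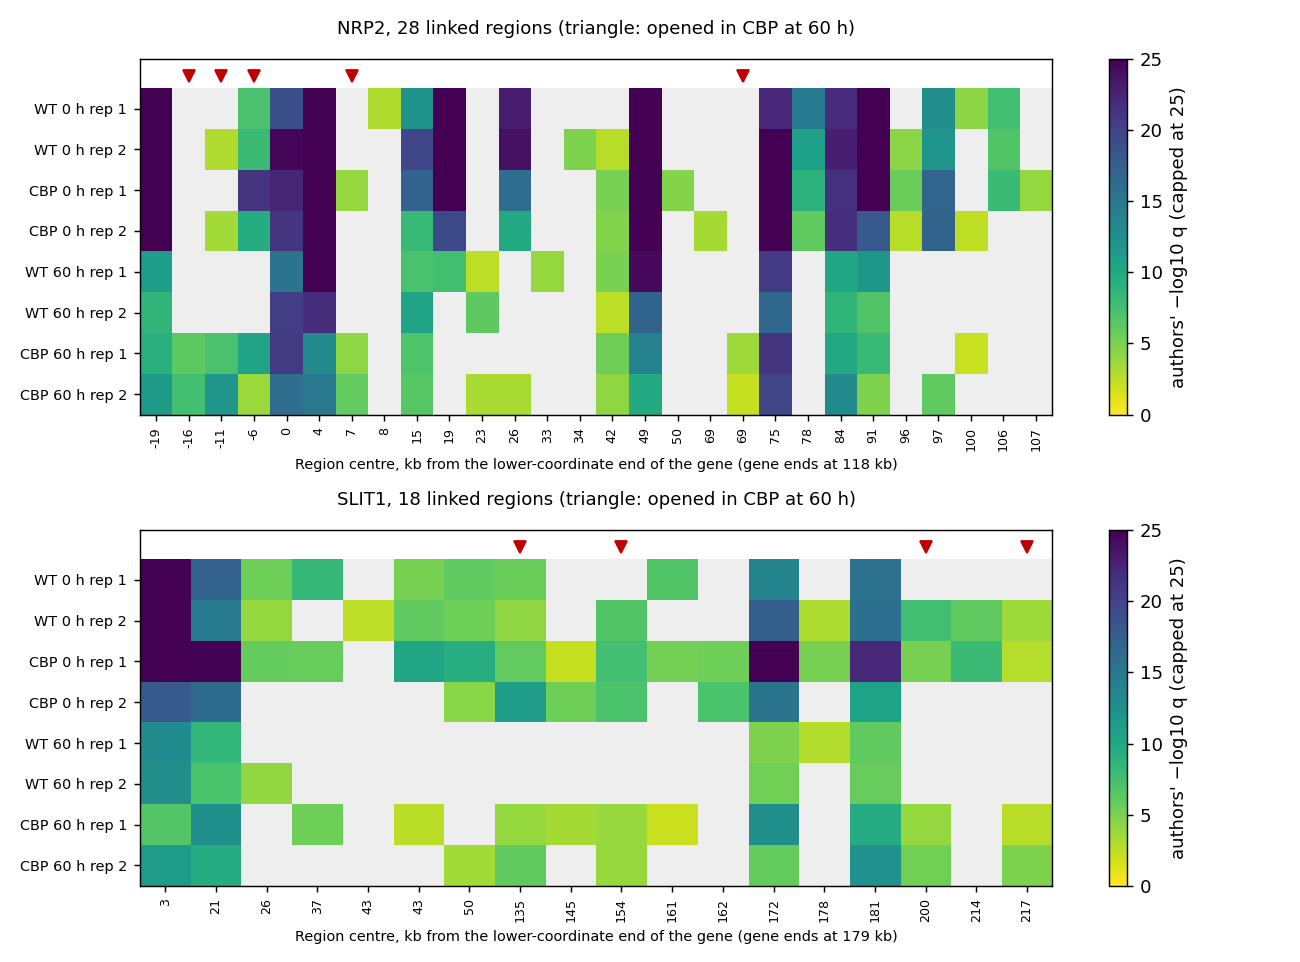
Regions linked to NRP2 (top) and SLIT1 (bottom) in order along the chromosome, with the distance of each region's centre from the lower-coordinate gene end in kb on the x axis, 1 row per library; colour gives the authors' −log10 q of the strongest peak, capped at 25, grey means not called, and triangles mark regions opened in CBP at 60 h. At NRP2 3 triangles stand next to each other outside the gene, and the SLIT1 triangles stand over weak calls that also appear at 0 h.

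SLIT1, a Slit ligand (chromosome 14, 108446003 to 108624508), had 18 linked regions. WT 0 h libraries called 10 and 14 of them, CBP 0 h 17 and 9, WT 60 h 5 and 5, and CBP 60 h 12 and 9. The CBP 0 h replicates stand apart, the lower value being that of replicate 2, the shallowest 0 h library. With equal peak numbers the counts were 5 and 4, 6 and 7, 5 and 5, and 9 and 9 in the same order.

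All 4 SLIT1 regions opened in CBP at 60 h were also called in proliferation, in 2 to 4 of the 4 libraries at 0 h. The region at 108580513 to 108581452, inside the gene, had a −log10 q of 5.65 and 4.18 in WT 0 h, 6.01 and 11.3 in CBP 0 h, and 3.94 and 6.08 in CBP 60 h. The others were at 108599388 to 108600294 inside the gene, and at 108645374 to 108645912 and 108662795 to 108663767 beyond its higher-coordinate end. Their −log10 q in CBP 60 h was 2.64 to 5.28, with summit pileups of 10 to 13 fragments, where the median peak of either CBP 60 h list had 22. At a −log10 q of at least 5, SLIT1 had no opened region. Among all 3606 linked regions opened in CBP at 60 h, 80.8% were called in at least 1 library at 0 h and 19.2% in none, and for the 13 guidance regions the counts were 11 and 2, both of the latter at NRP2.

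SLIT3, another Slit ligand (chromosome 16, 54551536 to 55221427), had its lowest counts as deposited in WT 60 h, like SLIT1. Of its 22 linked regions, 12 and 12 were called in WT 0 h, 17 and 16 in CBP 0 h, 7 and 9 in WT 60 h, and 14 and 13 in CBP 60 h. CBP was thus above WT at both times as deposited. Over all linked regions the shares called were 69.8% and 73.8%, 74.7% and 65.6%, 48.4% and 46.2%, and 48.4% and 47.8% in the same order. How many other genes show the order seen at SLIT3 is not given here, so it is a description. With equal peak numbers the values at 0 h were 9 and 10 in WT and 9 and 8 in CBP, so the order at 0 h was not kept. Those at 60 h were 7 and 9 in WT and 12 and 13 in CBP. The 3 SLIT3 regions opened at 60 h all lay outside the gene. The region at 54519070 to 54519619 was called in all 4 CBP libraries (5.50 and 3.29 at 0 h, 5.44 and 6.98 at 60 h) and in no WT library. Those at 55238293 to 55238847 and 55255684 to 55256465 were each called in CBP 60 h and in 1 CBP 0 h library. SLIT2, the Slit ligand on chromosome 8 (14758426 to 15149515), had 11 linked regions, of which 8 were called in every 0 h library, 4 and 5 in WT 60 h and 6 and 3 in CBP 60 h. Its region at 14752944 to 14753464, outside the lower-coordinate end, was closed in CBP at 60 h, with a −log10 q of 9.16 and 7.54 in WT 60 h, 13.9 and 12.2 in WT 0 h and 19.5 in CBP 0 h replicate 1.

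The Robo receptors are long genes, and the rule reaches few of their regions. ROBO1 (chromosome 13, 175348223 to 176479482) had 5 linked regions, of which 3 and 3 were called in WT 0 h, 4 and 3 in CBP 0 h, 3 and 2 in WT 60 h and 1 and 2 in CBP 60 h. ROBO2 (chromosome 13, 177365712 to 179040027) had 6, with 2 and 3, 4 and 4, 2 and 2, and 2 and 2 called in that order. Regions overlapping the whole gene were therefore also counted, a choice made after seeing the data, which gave 87 for ROBO1 and 37 for ROBO2. Of the ROBO2 regions, 20 and 23 were called in WT 0 h, 25 and 20 in CBP 0 h, 6 and 8 in WT 60 h, and 16 and 15 in CBP 60 h. CBP 60 h lay above WT 60 h and below every 0 h library. How many other genes show this order over their spans is not given here, so it is a description. Of all linked regions, 48.4% and 46.2% were called in WT 60 h and 48.4% and 47.8% in CBP 60 h. With equal peak numbers the 60 h values were 6 and 8 in WT and 14 and 14 in CBP, and 0 h libraries ranged from 10 to 12. In CBP at 60 h 7 ROBO2 regions were opened and 0 closed, where 3.43% of all regions inside gene spans were opened. They lay 136 to 769 kb from the nearest gene end. Of the 7, 3 were called in all 4 libraries at 0 h and 2 in none, and their −log10 q in CBP 60 h was 2.39 to 8.67. ROBO1 had 5 opened and 3 closed of 87 (3.17% of all regions inside gene spans were closed), with 28 and 21 called in WT 60 h and 30 and 30 in CBP 60 h. Over the spans of all 10 genes, 389 regions, 23 were opened and 10 closed in CBP at 60 h. At 0 h 13 were opened and 15 closed, beside 2.14% and 3.47% of all regions inside gene spans. Between times, 3 were opened and 67 closed in WT (0.566% and 14.7% of all) and 9 and 58 in CBP (1.5% and 14.4% of all).

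**Figure D3:**
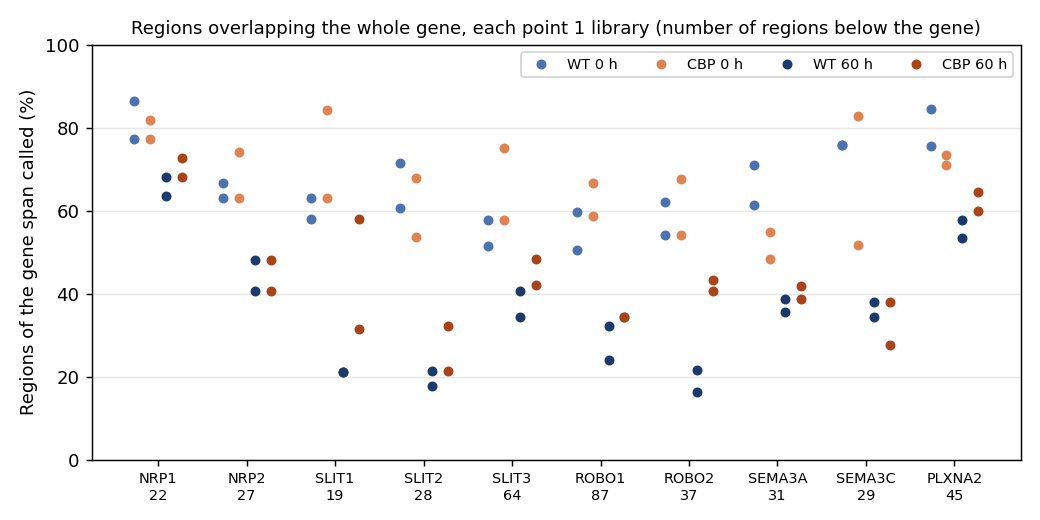
Share of the regions overlapping each whole gene (number given under its name) that was called in each library, in percent; each point is 1 library, coloured by group. At ROBO2 the CBP 60 h libraries (16 and 15 of 37 regions) stand above the WT 60 h libraries (6 and 8), while at NRP2 the 60 h groups cover the same range.

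The class 3 semaphorin genes had few linked regions. Fewer of them were called in CBP 60 h than in WT 0 h, as also for NRP1, SLIT2, ROBO1 and PLXNA2. These groups differ in time and depth as well as label. Of all linked regions, 69.8% and 73.8% were called in WT 0 h and 48.4% and 47.8% in CBP 60 h. SEMA3A, a repulsive ligand of NRP1 (chromosome 9, 95934937 to 96387950), had 10 and 10 of 11 linked regions called in WT 0 h, 8 and 7 in CBP 0 h, 7 and 5 in WT 60 h, and 5 and 4 in CBP 60 h. SEMA3C, which binds both neuropilins (chromosome 9, 99114649 to 99432683), had 7 and 8 of 8 in WT 0 h, 7 and 6 in CBP 0 h, 5 and 5 in WT 60 h, and 4 and 4 in CBP 60 h. With equal peak numbers SEMA3A had 6 and 7, 5 and 6, 7 and 5, and 5 and 4 in the same order. SEMA3C then had 7 and 7, 4 and 3, 5 and 5, and 4 and 4. Of the linked regions in CBP against WT at 60 h, SEMA3A had 0 opened and 0 closed of 11 and SEMA3C 0 and 1 of 8, numbers too small to set apart from the 3.14% and 3.17% of all linked regions. Inside the gene spans SEMA3A had 2 opened and 1 closed of 31 and SEMA3C 1 and 1 of 29, where 3.43% and 3.17% of all such regions were opened and closed. The closed linked region of SEMA3C lay at 99089636 to 99090336, 24.3 kb outside the lower-coordinate end. Its −log10 q was 23.0 and 22.0 in WT 0 h, 2.76 and 4.83 in CBP 0 h, and 10.4 and 4.81 in WT 60 h.

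NRP1, the neuropilin that pairs with plexins to receive SEMA3A (chromosome 10, 56280673 to 56430832), had 0 linked regions opened or closed between CBP and WT at either time, which with so few regions cannot be set apart from the 3.14% and 3.17% of all linked regions at 60 h and the 2.23% and 3.35% at 0 h. Of its 18 linked regions, 14 and 13 were called in WT 0 h, 13 and 14 in CBP 0 h, 9 and 11 in WT 60 h, and 10 and 12 in CBP 60 h. Its region at 56399684 to 56401316, inside the gene, had the highest −log10 q among the guidance regions called in all 8 libraries, from 60.9 to 75.0 at 0 h and from 29.8 to 43.4 at 60 h. PLXNA2, an A-family plexin (chromosome 9, 134584760 to 134800471), had 31 linked regions, of which 23 and 27 were called in WT 0 h, 24 and 24 in CBP 0 h, 16 and 16 in WT 60 h, and 17 and 18 in CBP 60 h. Its opened region in CBP at 60 h lay inside the gene, 0.953 kb from the lower-coordinate end (134585713 to 134586257). It was called in all 4 libraries at 0 h (5.78 to 8.99), in no WT 60 h library and in both CBP 60 h libraries (4.68 and 5.93).

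In proliferation, CBP against WT gave 7 opened and 1 closed guidance regions as deposited (4.43% and 0.633%), where 2.23% of all linked regions were opened and 3.35% closed. This order turned with equal peak numbers, to 2 opened and 7 closed, against 1.85% and 2.35%. As deposited, SLIT1, SLIT3 and PLXNA2 had 2 opened regions each and ROBO2 had 1. With equal numbers SEMA3C had 3 closed and PLXNA2 had 2. The ROBO2 region at 177393853 to 177394441, inside the gene, was called in both CBP 0 h libraries (−log10 q of 14.4 and 7.08) and in no other library, and it was opened in both settings. The SLIT1 region at 108608197 to 108608698 had 5.50 and 7.08 in CBP 0 h and was called in no other library. NRP2 had 0 opened and 0 closed regions at 0 h as deposited and 1 of each with equal peak numbers. The CBP 0 h libraries differed in depth (1.98 and 1.43), and the part of depth in these counts was not tested. Leaving out 1 library at a time gave 12 opened and 8 closed without CBP replicate 1, 15 opened without CBP replicate 2, 12 closed without WT replicate 1, and 11 opened and 5 closed without WT replicate 2.

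**Figure D4:**
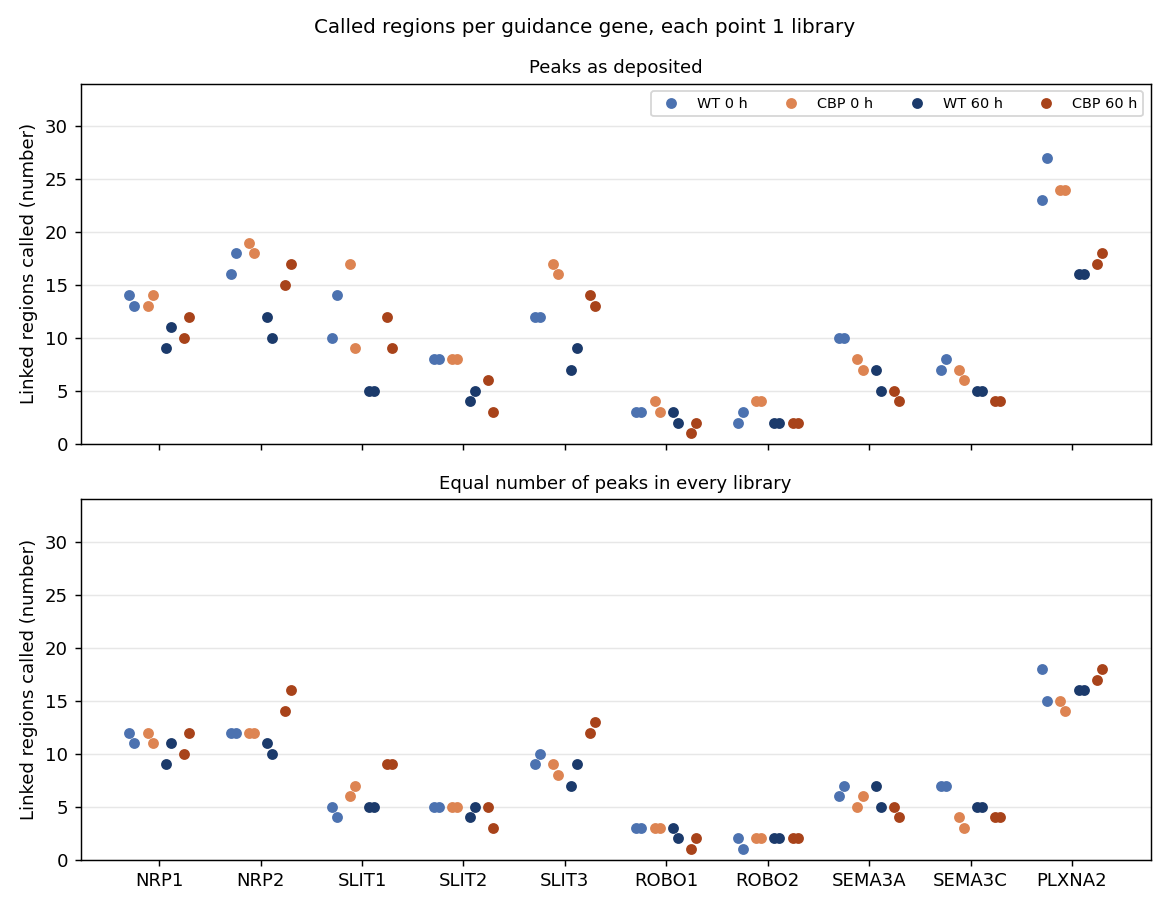
Number of linked regions called for each guidance gene, each point 1 library, as deposited (top) and with equal peak numbers (bottom). As deposited the 0 h libraries of PLXNA2 (23 to 27) stand above its 60 h libraries (16 to 18), and with equal peak numbers they overlap; NRP2 and SLIT1 in CBP 60 h stand above WT 60 h in both panels.

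Between 0 h and 60 h, every guidance gene had fewer called regions on average at 60 h as deposited. The number was 24.5 ± 1.73 at 0 h and 16.8 ± 0.957 at 60 h for PLXNA2 (SD, n = 4 each), 13.5 ± 0.577 and 10.5 ± 1.29 for NRP1, and 17.8 ± 1.26 and 13.5 ± 3.11 for NRP2. For SLIT1 it was 12.5 ± 3.70 and 7.75 ± 3.40. A two-sided exact permutation test over the 8 libraries was run for all 17474 genes. WT and CBP libraries were pooled at each time, so the SDs and the test also take in differences between WT and CBP. For NRP2, the SD at 60 h comes from 12 and 10 in WT and 15 and 17 in CBP. For PLXNA2, NRP1, SLIT2 and SEMA3C the libraries of the times did not overlap (exact permutation p = 0.0286, the smallest that 8 libraries allow), with fewer regions at 60 h, as for 27% of all genes; 0.0343% of all genes had more regions at 60 h without overlap. After Benjamini-Hochberg adjustment over all genes 0 of the 10 passed (smallest adjusted exact permutation p = 0.106), and 0% of all genes did. That adjusted value is the one reached at the smallest p that 8 libraries allow, so no gene could go below it. The mean difference had a median of -3.5 regions over the 10 genes and -1 over all genes, and genes with many linked regions can differ by more. With equal peak numbers 0 of 10 genes had libraries that did not overlap, where 3.1% of all genes had fewer and 1.54% more regions at 60 h without overlap, and the mean was higher at 60 h for NRP2, SLIT1, SLIT3, ROBO2 and PLXNA2 and lower for the other 5 (adjusted exact permutation p from 0.909 to 1).

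Within WT, 1 guidance region was opened between 0 h and 60 h (0.633%) and 23 were closed (14.6%), beside 0.575% and 14.3% of all linked regions. Within CBP 2 were opened (1.27%) and 26 closed (16.5%), beside 1.36% and 14.5%. These shares lie near those of all linked regions. NRP2 and PLXNA2 had 5 closed regions each in WT, and 3 and 6 in CBP. Equal peak numbers gave 1 opened and 9 closed in WT, where 2.62% and 3.89% of linked regions did so, and 15 opened and 7 closed in CBP, where 3.64% and 5.57% did so. The 15 were 4 each of NRP2 and SLIT3, 3 of PLXNA2, 2 of SEMA3C and 1 each of SLIT1 and ROBO2. Without WT 0 h replicate 1, 42 regions were closed in WT, and without CBP 0 h replicate 1, 7 were opened in CBP. Regions closed in both comparisons of times were called in all 4 libraries at 0 h and in none at 60 h. Examples were the ROBO1 region at 175327092 to 175327836, outside the gene, with a −log10 q of 8.34 and 13.0 in WT 0 h and 17.99 and 11.3 in CBP 0 h, and the SEMA3C region at 99130505 to 99131338, with 32.6 and 33.1 in WT 0 h and 13.5 and 16.0 in CBP 0 h. The SEMA3A region at 96380939 to 96381578, inside the gene, had 19.98 and 23.9 in WT 0 h and 8.69 and 11.3 in CBP 0 h, and at 60 h it was called in WT replicate 1 (3.66). At PLXNA2, regions at 134575071 to 134575523 and 134807227 to 134807542, on either side of the gene, were called in both CBP 0 h libraries (−log10 q from 4.10 to 5.47) and in no other library. The comparisons of times share their 60 h and 0 h libraries with those of CBP against WT.

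Peak height gave a further reading in regions called in all 4 libraries of a comparison. Height is the recovered summit pileup divided by the background level of the library, and a region is termed higher or lower if the group means differed by at least 1.5 times and the replicates did not overlap. At 0 h 87 guidance regions could be compared, of which 2 were higher and 3 lower in CBP, beside 2.67% and 2.35% of all such linked regions. All 3 lower regions belonged to SEMA3C, which had 6 regions in the comparison. At 99089636 to 99090336 the heights were 10.98 and 9.41 in WT 0 h and 3.39 and 5.05 in CBP 0 h (ratio 0.414). At 99130505 to 99131338, inside the gene, they were 13.7 and 12.1 in WT and 7.29 and 9.75 in CBP (ratio 0.659), and this region was called in no library at 60 h. At 99447552 to 99448550, beyond the other end, they were 14.3 and 9.90 in WT and 5.99 and 6.50 in CBP (ratio 0.515), and at 60 h 7.91 and 7.22 in WT and 6.84 and 9.09 in CBP. That the WT values lay above the CBP values at all 3 sites at 0 h follows from the rule for a lower region. With the authors' fold of the same peaks in place of the height the ratios were 0.419, 0.649 and 0.652. Without WT replicate 2 or CBP replicate 2 there were 5 lower regions, and without WT replicate 1 there were 5 higher.

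The higher regions at 0 h were at NRP1 and NRP2. At NRP1 (56294338 to 56296235, inside the gene) the heights were 14.9 and 15.6 in WT 0 h and 21.4 and 24.5 in CBP 0 h, with an authors' fold ratio of 1.10. At NRP2 the third region outside the lower-coordinate end, described above, had 6.71 and 6.68 in WT 0 h and 11.7 and 9.03 in CBP 0 h (ratio 1.55).

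At 60 h 56 guidance regions could be compared, with 3 higher and 5 lower in CBP, beside 3.22% higher and 9.87% lower of all such linked regions. The lower regions were 3 of PLXNA2 and 2 of NRP2, all inside their genes. The PLXNA2 region at 134772095 to 134773578 had heights of 30.2 and 36.6 in WT 60 h and 14.5 and 16.3 in CBP 60 h (ratio 0.461), and 29.5 to 35.4 over the 0 h libraries. The NRP2 region at 109022714 to 109023906 had 21.9 and 18.04 in WT 60 h and 11.5 and 9.57 in CBP 60 h (ratio 0.529), and 21.9 to 25.6 at 0 h. In both, the CBP 60 h libraries were the lowest of the 8. Without WT replicate 2 there were 6 higher and 8 lower regions, without WT replicate 1 there were 7 higher, and without CBP replicate 2 there were 9 lower. With the authors' fold, which divides by a local background, the 5 ratios were 0.833 to 0.908 and 0 regions were called lower, so the size of this difference depends on how height is scaled. The higher regions at 60 h were 1 each of SLIT1, SLIT3 and ROBO2. The ROBO2 region covers the higher-coordinate gene end (179039607 to 179040465) and had 6.51 and 5.15 in WT 60 h and 11.11 and 8.61 in CBP 60 h (ratio 1.69, or 1.56 with the fold). In the same CBP 60 h libraries, NRP2 had opened regions outside its lower-coordinate end. By height over the library background, it also had lower peaks at 2 regions inside the gene. The 5 lower of 56 guidance regions lie near the 9.87% of all linked regions compared. Gained regions of NRP2 were a ground for choosing the set, so the 2 observations together are a description.

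**Figure D5:**
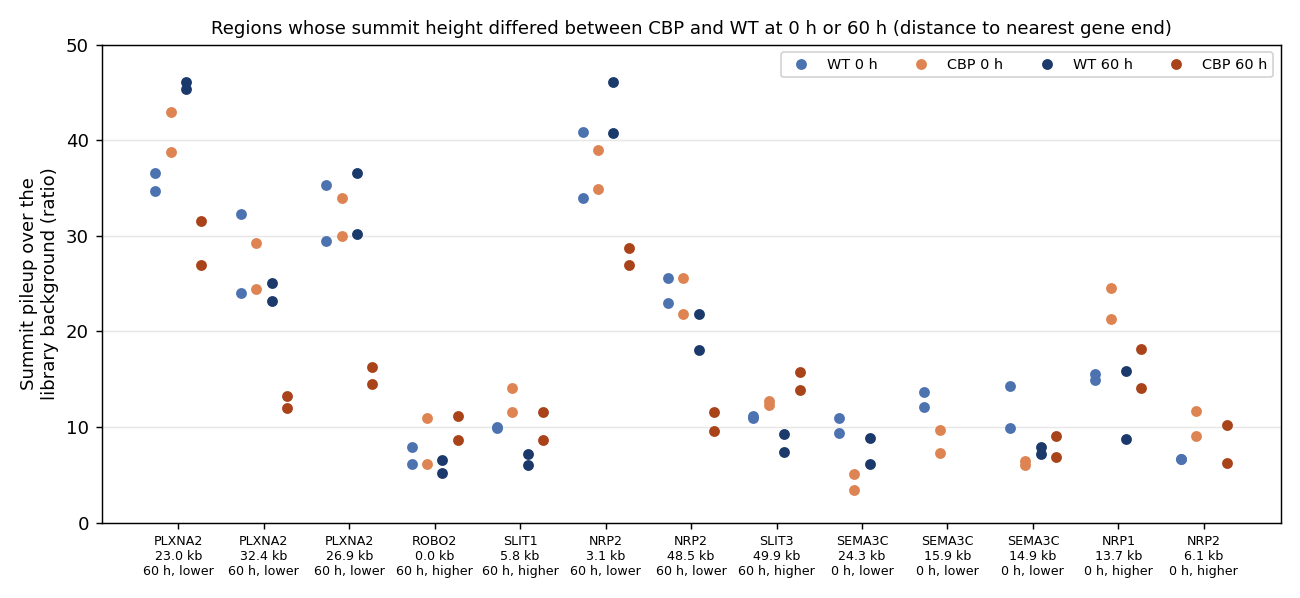
Summit height (recovered pileup over the library background, a ratio) of the 13 cases in which a guidance region was higher or lower in CBP at 0 h or at 60 h, each point 1 library; labels give the gene, the distance to the nearest gene end and the comparison. The 3 SEMA3C regions have CBP 0 h points below WT 0 h points, as the rule for a lower region requires. The PLXNA2 and NRP2 regions named lower at 60 h have CBP 60 h points below the other 6 libraries, of which the rule requires only the order against WT 60 h.

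The guidance regions that cover a gene end numbered 7, at SLIT2, SEMA3A, NRP1, ROBO1, ROBO2, NRP2 and SLIT3, with none at SLIT1, SEMA3C or PLXNA2. All 7 were called in 8 of 8 libraries, as were 10252 of the 11861 linked regions of all genes that cover an end. The NRP2 region had heights of 29.88 and 29.95 in WT 0 h, 30.2 and 34.7 in CBP 0 h, 33.0 and 38.1 in WT 60 h, and 30.8 and 27.8 in CBP 60 h. None of the 13 opened regions covered a gene end, where 118 of the 3606 opened linked regions of all genes did. Of the 13, 8 lay outside any protein-coding gene, compared with 55 of all 158 guidance regions and with 44.5% of all opened linked regions. Their median width was 555 bp, against 700 bp for the 158 and 660.5 bp for all opened linked regions.

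Genes of 6 further guidance lists were counted in the same way. Among 158 linked regions of the semaphorins of classes 4 to 7, 11 were opened in CBP at 60 h and 8 closed. The counts were, for cytoplasmic effectors of semaphorin signalling, 8 and 5 of 155, for other class 3 semaphorins 2 and 1 of 52, for other plexins 2 and 1 of 82, for the other Robo genes and Slit effectors 3 and 4 of 100, and for netrins and their receptors 3 and 2 of 135, against 3.14% and 3.17% of all linked regions. SEMA5A, a membrane-bound semaphorin, was the gene of these lists with a net of 3 or more, with 3 opened and 0 closed of 7. It was called at 1 and 1 regions in WT 60 h and 4 and 4 in CBP 60 h, after 5 and 6 in WT 0 h and 6 and 5 in CBP 0 h. At 0 h ABL2, a kinase linked to Robo signalling, had 3 opened and 0 closed of 10 in CBP, beside 2.23% and 3.35% of all linked regions. Its calls were 5 and 5 in WT 0 h and 7 and 7 in CBP 0 h as deposited, and 3 and 3 against 2 and 3 with equal peak numbers, so the order was not kept. Between the times, 15 genes of these lists had a net of 3 or more closed regions in WT and 15 in CBP, where 14.3% and 14.5% of all linked regions were closed. In WT the highest counts were 6 of 26 for SEMA6A, 6 of 25 for UNC5B, a netrin receptor, and 5 of 24 for ENAH, an actin regulator downstream of Robo. In CBP they were 6 of 24 for SEMA4D, 6 for UNC5B, and 5 each for ENAH, SEMA6A and FARP1 (of 14). The mean difference, 60 h minus 0 h over all 8 libraries, went with equal peak numbers from -7.75 to -1 regions for SEMA6A, from -9.75 to -1 for UNC5B and from -6.75 to -1.5 for ENAH. Of the genes in the 6 lists, 0 passed the test between times in either direction (adjusted exact permutation p of at least 0.106). As given above, 0% of all genes passed and none could go below this value.

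Genes whose calls were distributed over the libraries most like those of NRP2 were ADCY7, INSR and GADD45G, with root mean square differences of 2.98, 3.11 and 3.28 percentage points in the share of linked regions called over 8 libraries, among 4074 genes with at least 10 linked regions and with equal peak numbers. For SLIT1 they were LOC106510465, RBM20 and HS3ST3B1 (2.78, 3.49 and 4.31 points). INSR had 46.2% of 13 regions called in every 0 h library, 38.5% in both WT 60 h libraries and 53.8% in both CBP 60 h libraries. It was picked among the 4074 genes for likeness in these same values, so its pattern follows from the choice. Regions just inside the 50 kb limit, from 47.4 to 49.9 kb, numbered 12, with 4 and 4 called in WT 60 h and 5 and 6 in CBP 60 h. Those just outside it, from 50.2 to 54.8 kb, numbered 14, with 7 and 5 called in WT 60 h and 5 and 5 in CBP 60 h.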

How the data were processed

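The submitters' processing notes name Trimmomatic for trimming, MACS2 2.1.0 as peak caller and the Sscrofa11.1 build, and the authors deposited 1 peak list per library, so replicates were not pooled. How reads were aligned, and whether duplicates were removed or ends shifted for the transposase, is not given in the sources used here. The deposited lists hold a score, a fold enrichment ratio over local background, and −log10 p and −log10 q per peak, all made by the authors' peak caller, with positions in bp. The score was not used.

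Peaks on chromosomes 1 to 18 and X were kept. Gene ends came from the RefSeq table of Sscrofa11.1, which gives no strand or exons, and no genome sequence was used here, so sequences and motifs were not examined. A summit pileup and local background were solved from each fold and −log10 p, with a whole pileup for 100% of peaks at a tolerance of 0.01. The most frequent background of a library was its depth measure. Intervals need read totals, which the lists do not hold.

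The 10 genes and the gene lists were chosen with earlier results of these data known. Named regions were taken from those opened or closed in a comparison, in full for NRP2 and SLIT1 in CBP at 60 h and otherwise at most 3 per gene and comparison, and the strongest region called in all 8 libraries. Named genes of the other lists have a net of at least 3 opened or closed regions, at most 6 per comparison. With 2 libraries a group the smallest exact permutation p is 0.333, so CBP and WT are compared by counts with no test. The comparison of heights and the counts over whole genes were added after seeing the data. Code was tested on simulated data and run with Python 3.11.15, numpy 2.4.6, pandas 2.3.3 and scipy 1.17.1.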

Additional observations from a re-analysis of the deposited data

How the results depend on the processing

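Counts of opened and closed guidance regions depended on the setting, and apart from those given below they stayed within 1.5 times. In CBP against WT at 60 h (13 opened, 2 closed), a −log10 q of at least 5 gave 5 and 1, cover of 50% of a region gave 4 closed, links within 10 kb gave 3 and 1, links within 1 kb gave 1 and 0, whole gene spans gave 23 and 10, and leaving out 1 library gave 14 to 23 and 3 to 8. At 0 h (7 and 1), equal peak numbers gave 2 and 7, a −log10 q of at least 5 gave 4 opened, 50% cover gave 3 closed, 10 kb gave 3 and 0, 1 kb gave 0 and 0, spans gave 13 and 15, and leaving out 1 library gave 9 to 15 and 1 to 12. In WT between times (1 and 23), equal numbers gave 9 closed, the q limit gave 0 opened, 10 kb gave 0 and 4, 1 kb gave 0 and 2, spans gave 3 and 67, and leaving out 1 library gave 1 to 3 and 29 to 42. In CBP between times (2 and 26), equal numbers gave 15 and 7, 50% cover gave 6 opened, 10 kb gave 0 and 6, 1 kb gave 0 and 1, spans gave 9 and 58, and leaving out 1 library gave 4 to 7 and 30 to 37. A shorter link distance or a longer list of regions changes the number of regions examined, and without a library the rule is met more easily; otherwise the cause was not tested.

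Higher and lower heights at 0 h (2 and 3) became 1 and 1 with equal numbers, 1 lower with the q limit, 1 and 1 with 50% cover, 1 and 0 at 10 kb, 0 and 0 at 1 kb, 0 higher with the authors' fold, 9 and 5 over spans, and 2 to 5 and 2 to 5 without 1 library. At 60 h (3 and 5) they became 1 higher with the q limit, 0 and 3 with 50% cover, 1 lower at 10 kb, 1 and 0 at 1 kb, 0 lower with the fold, 5 and 15 over spans, and 4 to 7 and 5 to 9 without 1 library. Between times, equal peak numbers reversed the difference for NRP2 (0.75), PLXNA2 (1.25), ROBO2 (0.25), SLIT1 (1.5) and SLIT3 (1.25 regions, 60 h minus 0 h), and the net of opened less closed regions of SLIT2 in CBP at 60 h was 1 without CBP replicate 2 and -1 without each of the other 60 h libraries.

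Groups share replicate numbers, and deviations of same-numbered libraries correlated from -0.0581 to 0.0117. Within a group the replicates deviate from their mean by equal and opposite amounts, so both replicates give the same correlation. Whether same-numbered libraries share an animal, culture or preparation is not stated, and these correlations cannot decide it. With the replicate block 0 of the 10 genes passed the exact permutation test between times, as without it. With labels exchanged only within WT and within CBP, 0 passed as well. The smallest exact permutation p that either of these allows is 0.0556, above the threshold of 0.05, so no gene could pass.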
